A study of Arabidopsis thaliana with 4 samples.

Results

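The CIN-type TCP factors of Arabidopsis thaliana were followed in seedlings of the jmj28-3 line and in wild-type seedlings (WT, accession Col-0). They are 8 genes, TCP2, TCP3, TCP4, TCP5, TCP10, TCP13, TCP17 and TCP24, chosen by their gene identifiers among the 33602 genes measured, and all 8 were found. Both genotypes were sampled as whole seedlings aged 12 days, grown on medium with 1% sucrose at 23 °C in days of 16 h of light and 8 h of dark, and each gave 2 libraries of polyadenylated RNA. JMJ28 codes for a jumonji-domain protein, a class of histone demethylases, known as a regulator of the flowering gene CO that acts with the FBH factors. The labels do not describe the lesion of this line, and a single allele was measured. JMJ28 itself (AT4G21430) had 3.65 and 3.33 FPKM in jmj28-3 and 3.8 and 5.54 FPKM in WT, which did not pass the test (adjusted p = 0.327 in limma), so its transcript level does not check the genotype. FPKM are fragments of a gene relative to the length of its transcript and to the mapped fragments of the library.

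TCP factors bind DNA through a domain of the basic helix-loop-helix kind. The CIN branch, named after CINCINNATA of snapdragon, ends cell division and starts differentiation along the growing leaf, and its members act redundantly, so that leaves become crinkled or serrated when several are lost. Some members are cut by the microRNA miR319, and CIN-type factors are also known to activate CO in the photoperiod pathway. The labelled tissue, whole seedlings, was checked by markers. All 4 leaf markers and all 7 root markers were above 0 in every library. So were 2 of 4 shoot meristem markers and 3 of 5 flower markers. The flower markers summed to at most 0.81 FPKM in a library. The stem cell gene WUS and the flower gene AP1 were listed at 0 in every library. In RNA from whole seedlings, fewer cells that express a gene and less RNA per cell cannot be told apart.

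The feature that divides the 8 genes is the site for miR319, shown here because it is the best known difference among these genes. The sequences were read from the RefSeq annotation and genome of TAIR10.1. The 3 mature miR319 sequences, written 5′ to 3′ with the seed (bases 2 to 8) in capitals, share 1 seed, and miR319c differs from the others near its 3′ end.
miR319a, chr4:12353109-12353129, plus strand: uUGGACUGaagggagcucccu
miR319b, chr5:16660469-16660489, minus strand: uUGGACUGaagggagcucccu
miR319c, chr2:17029870-17029890, plus strand: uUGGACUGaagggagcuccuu

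The best complement to miR319a in each transcript model is a stretch of 21 bases. The 5 genes below are the members whose stretch had 6 or fewer bases that are not Watson-Crick complements of miR319a. Capitals mark those bases, and some of them are G:U pairs.
TCP2, chr4:10163402-10163422, minus strand: CAggGgGAcccttcagtccaa
TCP3, chr1:19850522-19850542, minus strand: GAggGgTCcccttcagtccaT
TCP4, chr3:5063300-5063320, plus strand: GAggGgTCcccttcagtccaG
TCP10, chr2:13221210-13221230, minus strand: aAggGgTAcccttcagtccaG
TCP24, chr1:10628989-10629009, minus strand: TAggGgGAcccttcagtccaa

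All 5 sites shared the run cccttcagtcca of 12 bases and paired with 7 of the 7 seed bases. The site of TCP3 differed from that of TCP4 at 1 base, as did that of TCP2 from that of TCP24. Sites of TCP2, TCP10 and TCP24 had 5 bases that were not Watson-Crick complements, of which 1, 3 and 1 were G:U pairs. TCP3 and TCP4 had 6 such bases, of which 3 and 4 were G:U pairs. In TCP5, TCP13 and TCP17 the best stretch had 9, 9 and 8 unpaired or G:U bases and paired with 4, 4 and 5 of the 7 seed bases. Over the transcript models of 27440 protein-coding genes, 314 had a stretch with 6 or fewer such bases, so the count alone does not single out the TCP genes.

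Each site lay inside the single coding exon, toward its end, at 73.8% of the coding length in TCP24 and up to 80.9% in TCP2. The open reading frames of the 8 genes ran from 729 bases in TCP17 to 1263 bases in TCP4, and all 8 models had their introns outside the coding sequence. TCP3 is overlapped over 1525 bases by a long noncoding RNA gene on the opposite strand (AT1G53233), and the other 7 genes had no overlapping neighbour in the annotation. No source used here states the strand setting of the counting, so reads of TCP3 and of AT1G53233 cannot be told apart. The longest exact run that a member shared with another TCP transcript was 38 bases, between TCP3 and TCP4.

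**Figure D1:**
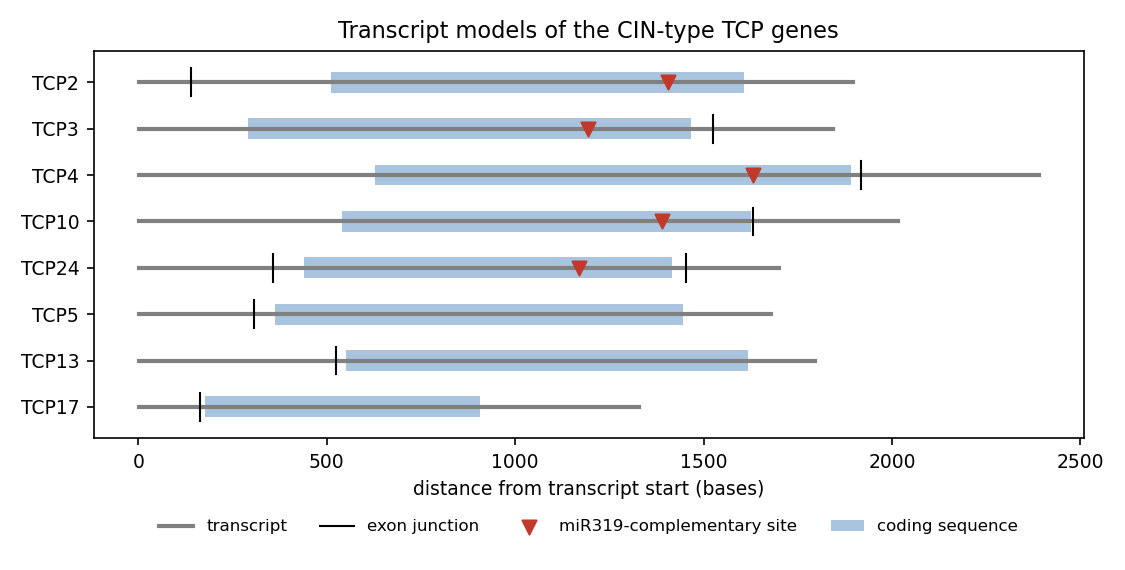
Transcript models of the 8 genes in RefSeq TAIR10.1, drawn by distance from the transcript start in bases, with the coding sequence in blue, exon junctions as black ticks and the miR319-complementary site as a red triangle. Sites of TCP2, TCP3, TCP4, TCP10 and TCP24 lie between 73.8% and 80.9% of the coding length, and TCP5, TCP13 and TCP17 have none with 6 or fewer unpaired or G:U bases.

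All 8 genes were transcribed in every library and passed the minimum mean of 0.5 FPKM set for a test. In jmj28-3 the levels ran downward from TCP10 through TCP3, TCP4, TCP24, TCP2, TCP13 and TCP5 to TCP17, and only TCP4 and TCP24 overlapped as neighbours. The WT order was TCP4, TCP10, TCP3, TCP2, TCP24, TCP13, TCP5 and TCP17, where TCP2 overlapped TCP24 and TCP13 overlapped TCP5. TCP10 therefore held the first place in jmj28-3 and TCP4 the third, whereas TCP4 led in WT. The summed FPKM of the 8 genes was 112.23 and 106.87 in jmj28-3 and 121.84 and 114.74 in WT. The 5 genes with a miR319 site gave 78.1% and 78.4% of that sum in jmj28-3, against 80.5% and 78.2% in WT.

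**Figure D2:**
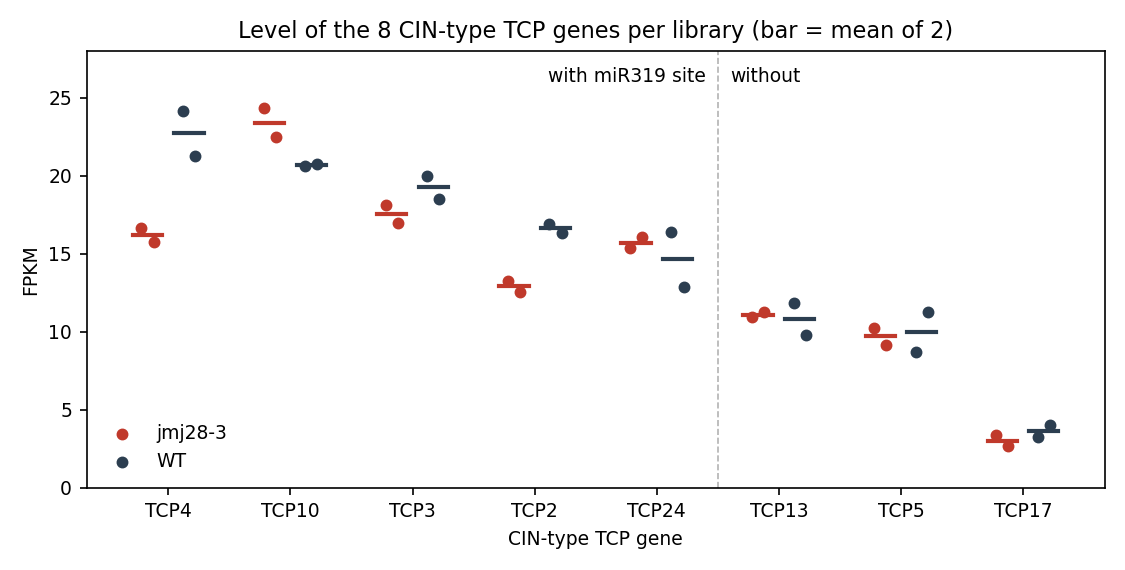
FPKM of each CIN-type TCP gene in each library, with jmj28-3 in red left of WT in dark blue. Points are libraries and bars are means of 2, and the jmj28-3 points of TCP4 (16.63 and 15.76) and TCP2 (13.25 and 12.56) sit below both WT points, while those of TCP10 (24.34 and 22.45) sit above.

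TCP4 (AT3G15030), which activates the lipoxygenase gene LOX2 and promotes leaf maturation, was the 1 member that passed the test. It had 16.63 and 15.76 FPKM in jmj28-3 and 24.17 and 21.24 FPKM in WT. Both jmj28-3 libraries lay below both WT libraries, and WT spread more widely. The means were 16.2 ± 0.615 FPKM in jmj28-3 and 22.7 ± 2.07 FPKM in WT (SD, n = 2), so TCP4 was 1.40-fold lower. On the log2(FPKM + 1) scale the change was -0.46 (SE 0.0872, 95% interval -0.68 to -0.24, adjusted p = 0.0379 in limma). Among all 20232 tested genes 3.79% were called lower, 4.18% higher and 7.97% in either direction, and 1 called member of 8 is near that background. The call sat close to the threshold of 0.05. Adjusted p was 0.168 without jmj28-3 replicate 1, 0.249 without jmj28-3 replicate 2, 0.150 without WT replicate 1 and 0.0776 without WT replicate 2, and it was also lost with no filter on low values (0.0755), with no variance trend (0.0813) and with replicate number as a block (0.0590). The log2 change stayed between -0.55 and -0.37 over all 13 alternatives.

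TCP2 (AT4G18390), a member known to interact with the blue light receptor CRY1, came next. Its level was 13.25 and 12.56 FPKM in jmj28-3 and 16.90 and 16.33 FPKM in WT. The genotypes did not overlap and the replicates lay close together. TCP2 did not pass the test, with a log2 change of -0.34 (95% interval -0.53 to -0.16, unadjusted p = 0.00462, adjusted p = 0.0550 in limma). It passed in 1 of 13 alternatives, the one that tested only genes with a mean of at least 2 FPKM (adjusted p = 0.0427), and it reached 0.291 without jmj28-3 replicate 2.

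TCP3 (AT1G53230), which is known to raise miR164, AS1 and IAA3, had 18.09 and 16.95 FPKM in jmj28-3 and 19.96 and 18.53 FPKM in WT. Its libraries were all lower in jmj28-3, by less than those of TCP4 and TCP2. The log2 change of -0.13 (95% interval -0.32 to 0.07, adjusted p = 0.381 in limma) did not pass. The overlapping RNA gene AT1G53233 had 2.32 and 2.15 FPKM in jmj28-3 and 1.22 and 1.1 FPKM in WT (adjusted p = 0.0644 in limma), and its part in the value of TCP3 was not tested.

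TCP10 (AT2G31070), another promoter of leaf differentiation under miR319, stood on the other side. There were 24.34 and 22.45 FPKM in jmj28-3 and 20.61 and 20.72 FPKM in WT, again with no overlap, but here jmj28-3 was the higher one. The log2 change was 0.17 (95% interval -0.01 to 0.35, adjusted p = 0.224 in limma) and did not pass. In each library the ratio of TCP4 to TCP10 can be read within the library. It was 0.68 and 0.70 in jmj28-3, against 1.17 and 1.03 in WT. TCP4 gave 19.0% and 18.8% of the summed FPKM of the 5 genes with a site in jmj28-3 and 24.7% and 23.7% in WT, while TCP10 gave 27.8% and 26.8% in jmj28-3 and 21.0% and 23.1% in WT. These shares are given as values, since the pair was picked after the levels were seen.

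TCP24 (AT1G30210), the closest relative of TCP2 by its miR319 site and a repressor of secondary wall thickening in anthers, had 15.34 and 16.06 FPKM in jmj28-3 and 16.39 and 12.88 FPKM in WT. The genotypes overlapped because the WT libraries lay far apart. Its log2 change was 0.10 (95% interval -0.20 to 0.41, adjusted p = 0.661 in limma) and turned to -0.06 without WT replicate 2.

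The 3 genes without a miR319 site overlapped between genotypes, and none passed the test. TCP13 (AT3G02150), first described as a plastid transcription factor and also named PTF1, had 10.95 and 11.25 FPKM in jmj28-3 and 11.86 and 9.78 FPKM in WT. TCP5 (AT5G60970), a regulator of petal growth, had 10.23 and 9.18 FPKM in jmj28-3 and 8.68 and 11.25 FPKM in WT. In both genes the jmj28-3 libraries fell inside the WT range. TCP17 (AT5G08070), which promotes hypocotyl growth in shade, was the lowest member, at 3.40 and 2.66 FPKM in jmj28-3 and 3.27 and 4.01 FPKM in WT. The log2 changes were 0.04 (95% interval -0.23 to 0.31), -0.03 (95% interval -0.37 to 0.31) and -0.20 (95% interval -0.58 to 0.17), in the order TCP13, TCP5 and TCP17, with adjusted p of 0.867, 0.932 and 0.473 in limma. The signs for TCP13 and TCP5 are not settled. Without WT replicate 2 they were -0.09 and 0.14, and TCP5 was also at 0.04 without jmj28-3 replicate 2.

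Seen together, 3 members lay below both WT libraries, 1 lay above both and 4 overlapped. Of all tested genes 32.7% lay below, 22.4% above and 55.2% on either side, so 4 of 8 is near the background. An unadjusted p under 0.05 was reached by 2 of 8 members, TCP4 and TCP2, against 24.2% of all tested genes. All 4 genes that did not overlap carry a miR319 site. The median log2 change was -0.13 over the 5 genes with a site, -0.03 over the 3 without, -0.08 over all 8 and -0.029 over all tested genes. Whether the genes with a site differed from those without was not tested. The precursor genes MIR319A, MIR319B and MIR319C were listed at 0 in all 4 libraries. Mature microRNAs carry no poly(A) tail, so these libraries give no level for miR319.

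Within the TCP family, the 18 tested genes were compared by the shape of their values over the 4 libraries, as the root mean square difference of log2(FPKM + 1) after centring each gene. Closest to TCP4 was TCP2 (0.0758), and closest to TCP2 was TCP23 of class I (0.0433). TCP13 and TCP24 were closest to each other (0.0419). For TCP10 it was TCP7 (0.103), for TCP5 it was TCP22 (0.0464), and for both TCP3 and TCP17 it was TCP20 (0.1 and 0.0528). With 4 libraries these distances describe the libraries and nothing further.

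The class I TCP factors bind a related DNA motif and act in growth and in the clock. Of their 13 genes 10 were tested, with 4 called higher, 2 called lower and 4 without a call, and a median log2 change of 0.13. Over all tested genes 4.18% were called higher and 3.79% lower. TCP21, also named CHE and known as a repressor of the clock gene CCA1, had 81.30 and 75.74 FPKM in jmj28-3 and 41.31 and 38.89 FPKM in WT (log2 change 0.95, adjusted p = 0.00303 in limma). TCP14, a regulator of seed germination and cell proliferation, had 40.30 and 39.12 FPKM in jmj28-3 and 22.63 and 28.09 FPKM in WT (log2 change 0.63, adjusted p = 0.0290). TCP8 and TCP19 were higher by 0.38 and 0.49 log2 units. TCP9 had 6.63 and 6.09 FPKM in jmj28-3 and 11.34 and 9.13 FPKM in WT (log2 change -0.60, adjusted p = 0.0460), and TCP23 was lower by a log2 change of -0.33 (adjusted p = 0.0499). The difference in calls between the CIN and class I genes was not tested. The 3 genes of the CYC/TB1 branch, which controls shoot branching, stayed at or below 0.63 FPKM and were not tested.

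The class I calls were sensitive to leaving out a library, whereas the changes themselves moved little in some genes. The log2 change of TCP21 was 0.90 and 1.00 without jmj28-3 replicates 1 and 2 and 0.99 and 0.91 without WT replicates 1 and 2, and that of TCP9 ran from -0.75 to -0.46. Calls over all 20232 genes fell as well, to 77 higher and 28 lower without jmj28-3 replicate 1 and 51 and 15 without jmj28-3 replicate 2, against 846 and 767 with all libraries. Leaving out jmj28-3 replicate 2 gave adjusted p of 0.0555 for TCP21, 0.187 for TCP8, 0.201 for TCP14, 0.211 for TCP19, 0.233 for TCP23 and 0.278 for TCP9, and leaving out jmj28-3 replicate 1 gave 0.0549 to 0.227 for the same genes. Only TCP21 was still called without WT replicate 1 (adjusted p = 0.0288, against 0.0733 for TCP14 and 0.141 to 0.185 for the others). TCP21 and TCP14 were still called without WT replicate 2 (0.0277 and 0.0329, against 0.0748 to 0.152 for the others). Median-of-ratios scaling ended the calls on TCP9 (0.0565) and TCP23 (0.0633), as did quantile normalization (0.0570 and 0.0541). With replicate number as a block TCP21 alone was called, at 0.00940, and the others were between 0.0525 and 0.115. It was again alone with no filter on low values (0.0151, against 0.0554 to 0.0967), and it was called with TCP19 when the variance trend was left out (0.0227 and 0.0467, against 0.0712 to 0.0858).

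**Figure D3:**
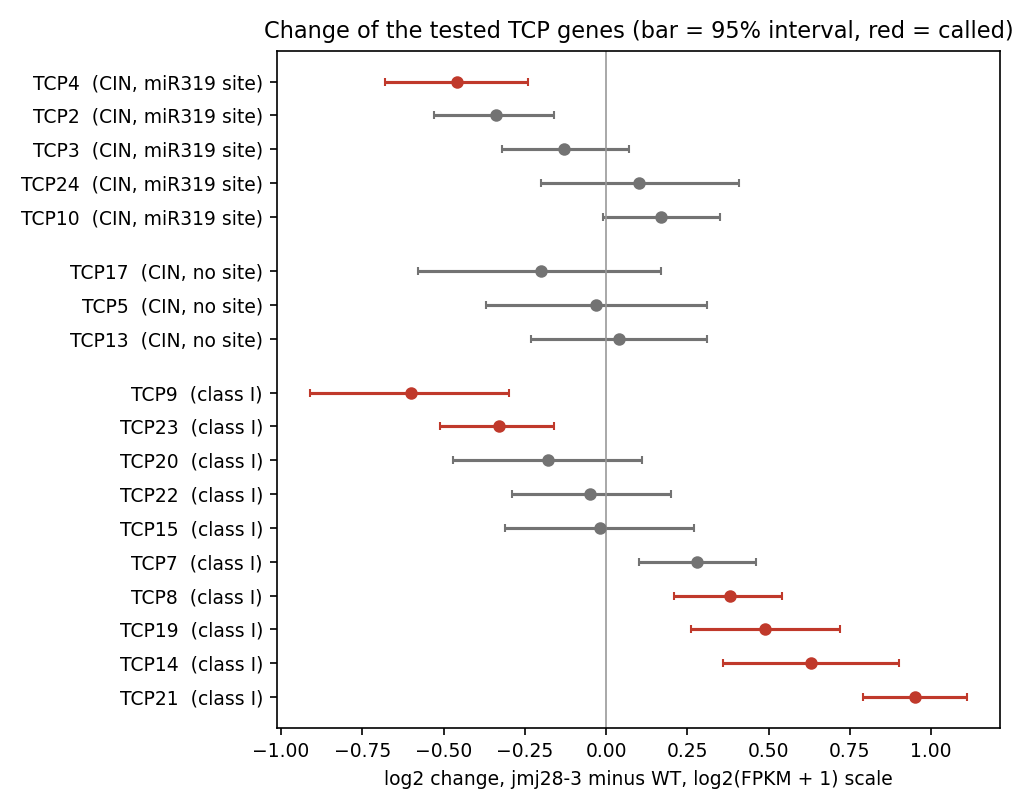
Log2 change of the 18 tested TCP genes, jmj28-3 minus WT on the log2(FPKM + 1) scale, with 95% intervals from limma and called genes in red. Among the CIN-type genes TCP4 (-0.46) is the only one in red, and the class I genes spread from TCP9 (-0.60) to TCP21 (0.95).

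CIN-type TCP factors recruit repressors through the TIE adaptors, which bring in TOPLESS corepressors. Of 9 such genes 8 were tested and 0 were called in limma. An unadjusted p under 0.05 was reached by 0 of them, against 24.2% of all tested genes. The lowest p belonged to TIE2, at 2.03 and 0.63 FPKM in jmj28-3 and 2.65 and 2.51 FPKM in WT (adjusted p = 0.238), and TIE4 (adjusted p = 0.421). The corepressor gene TPL had 49.77 and 50.63 FPKM in jmj28-3 and 48.47 and 49.33 FPKM in WT.

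Among 9 genes known downstream of the CIN branch in leaf growth and auxin response, 7 were tested, 1 was higher and 0 were lower. The shares over all tested genes were 4.18% higher and 3.79% lower. IAA3, an auxin response repressor known to be raised by TCP3, had 53.56 and 52.84 FPKM in jmj28-3 and 33.27 and 33.09 FPKM in WT. That is a 1.60-fold rise (log2 change 0.67, SE 0.0549, adjusted p = 0.00408 in limma), with replicates within 1 FPKM of each other. LOX2, a lipoxygenase at the start of jasmonate synthesis and a well known target of TCP4, had 143.48 and 174.74 FPKM in jmj28-3 and 100.5 and 120.23 FPKM in WT. It did not pass (log2 change 0.52, adjusted p = 0.0673), although its values lay above WT while those of TCP4 lay below. LOX2 passed in 1 of 13 alternatives, the one with replicate number as a block (adjusted p = 0.0242 in limma). The leaf regulator AS1 and the cell cycle inhibitor KRP1 had log2 changes of -0.34 and -0.26 and were not called (adjusted p = 0.183 and 0.115). Of 8 jasmonate synthesis genes, LOX2 included, 0 were called in limma and 2 had an unadjusted p under 0.05, LOX2 and OPR3 (adjusted p = 0.126). Of all tested genes 24.2% had such a p, so 2 of 8 is near the background.

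The shade and auxin list, with genes on which TCP5, TCP13 and TCP17 are known to act and others of the same response, held 9 genes. All 9 were tested, of which 4 rose, 0 fell and 5 had no call, with a median log2 change of 0.57. Over all tested genes 4.18% were called higher, and the median was -0.029. The list was chosen with earlier results of these data known, so this comparison is a description and not a test. IAA3 and YUC5 are in this list and in that of leaf growth and auxin response. The growth-promoting bHLH factor PIF4 had 82.44 and 78.63 FPKM in jmj28-3 and 45.35 and 52.18 FPKM in WT (log2 change 0.72, adjusted p = 0.00917 in limma). Its relative PIF5 had 128.84 and 130.36 FPKM in jmj28-3 and 85.96 and 88.21 FPKM in WT (log2 change 0.57, adjusted p = 0.00454). GH3.5, which conjugates auxin to amino acids, had 17.17 and 17.99 FPKM in jmj28-3 and 9.55 and 11.05 FPKM in WT (log2 change 0.72, adjusted p = 0.0136). IAA3 was the other called gene. The auxin synthesis genes YUC5 and YUC2 had log2 changes of 0.88 and -0.50 and did not pass (adjusted p = 0.0689 and 0.0916), so members of 1 enzyme family lay on opposite sides. TCP5, TCP13 and TCP17 themselves were not called.

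Calls on IAA3, PIF4 and PIF5 held without either WT library and were lost without a jmj28-3 library. Adjusted p was 0.0659, 0.1 and 0.0659 without jmj28-3 replicate 1 and 0.0754, 0.106 and 0.0797 without jmj28-3 replicate 2. The log2 changes in these fits were 0.66 and 0.68 for IAA3, 0.68 and 0.75 for PIF4 and 0.58 and 0.56 for PIF5, close to those with all libraries. That on GH3.5 held without WT replicate 2 and was at 0.112 without jmj28-3 replicate 1, 0.158 without jmj28-3 replicate 2 and 0.0715 without WT replicate 1. PIF4 and PIF5 transcripts follow the clock and light, and no source used here gives the time of day of sampling, so genotype and hour cannot be told apart.

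The CIN branch is known to restrain boundary and meristem genes. CUC3, which marks organ boundaries, was the 1 gene tested of 6 in the CUC and miR164 list, at 0.60 and 0.84 FPKM in jmj28-3 and 1.03 and 0.81 FPKM in WT (adjusted p = 0.632 in limma). Of 6 KNOX and SAW genes 5 were tested and 1 was called higher, against 4.18% of all tested genes. BLH2, also named SAW1 and a repressor of KNOX genes at leaf margins, was higher at 14.53 and 14.75 FPKM in jmj28-3, against 10.70 and 10.74 FPKM in WT (log2 change 0.42, adjusted p = 0.0312), and the KNOX genes STM, KNAT1 and KNAT6 were not called, with log2 changes of 0.17, -0.13 and 0.05. Of 14 genes of the GRF, GIF and miR396 module, which sustains cell proliferation, 10 were tested and 0 were called in limma. An unadjusted p under 0.05 was reached by 4 of these 10, against 24.2% of all tested genes. The lowest p were those of GRF3, at 13.12 and 11.44 FPKM in jmj28-3 and 8.92 and 8.56 FPKM in WT (adjusted p = 0.0533), and GRF6 (adjusted p = 0.104). GRF3 passed in 3 of 13 alternatives.

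NGATHA factors restrict leaf margin growth together with the CIN branch. Of 4 genes 3 were tested and 1 was called lower, against 3.79% of all tested genes. That gene was NGA3, at 1.95 and 2.06 FPKM in jmj28-3 and 3.31 and 3.76 FPKM in WT (log2 change -0.59, adjusted p = 0.0492 in limma). NGA1 lay on the same side, at 9.61 and 9.19 FPKM in jmj28-3 and 13.03 and 12.04 FPKM in WT, and did not pass (adjusted p = 0.0574). Neither BLH2 nor NGA3 was called once a library was left out. For BLH2 adjusted p was then 0.171 and 0.223 without jmj28-3 replicates 1 and 2 and 0.132 and 0.124 without WT replicates 1 and 2, and for NGA3 it was 0.204, 0.229, 0.129 and 0.169 in that order. Over all 13 alternatives the call on BLH2 was lost in 7 and that on NGA3 in 9.

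A search for the TCP core motif GGNCCC, on both strands from 250 bases before to 50 after each annotated gene start in TAIR10.1, found it in 8.7% of 27443 protein-coding genes. It was in 0 of the 8 CIN-type TCP genes, in 0 of the 9 shade and auxin genes and in 3 of the 4 NGATHA genes, NGA1, NGA3 and NGA4. Of the other lists it was in 3 of 8 jasmonate synthesis genes, 3 of 11 flowering genes, 3 of 13 class I TCP genes, 2 of 9 TIE and TOPLESS genes, 2 of 12 GRF, GIF and miR396 genes, 1 of 7 leaf growth and auxin genes and 0 of the CUC, KNOX and CYC/TB1 genes. The longer motif GTGGNCCC, which contains the first, was in 0.8% of all genes and, in these lists, at KRP1 and the CO activator gene FBH3. A match is a description of letters and not a site.

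The flowering list joins genes that CIN-type factors bind or activate with their partners. CO (AT5G15840), which CIN-type factors and JMJ28 are both known to activate, had 0.99 and 0.50 FPKM in jmj28-3 and 0.53 and 0.50 FPKM in WT (adjusted p = 0.628 in limma). The jmj28-3 replicates differed from each other by more than the genotypes did, and the 95% interval of the log2 change ran from -0.32 to 0.70. The means of CO, 0.745 FPKM in jmj28-3 and 0.515 FPKM in WT, lay near the minimum of 0.5 FPKM set for a test. The hour of sampling is not given either, so these values cannot decide whether its activation changed. Of 11 genes 10 were tested, 1 was lower and 9 were not called, with a median log2 change of -0.17. All tested genes had 3.79% called lower and a median of -0.029. An unadjusted p under 0.05 in limma was reached by 5 of the 10, against 24.2% of all tested genes. Of the 10, 5 lay below both WT libraries, 1 lay above both and 4 overlapped, against 32.7% below and 22.4% above. FT had 0.40 and 0.63 FPKM in jmj28-3 and 1.24 and 1.08 FPKM in WT. It was not called (log2 change -0.51, adjusted p = 0.141 in limma), and its jmj28-3 mean of 0.515 FPKM lay near the minimum. SPL9, a promoter of adult leaves and flowering whose protein binds TCP4, was lower at 3.09 and 3.33 FPKM in jmj28-3, against 5.02 and 6.23 FPKM in WT (log2 change -0.65, adjusted p = 0.0440). The SPL9 call was lost without any 1 library, with adjusted p of 0.213 without jmj28-3 replicate 1, 0.226 without jmj28-3 replicate 2, 0.0904 without WT replicate 1 and 0.156 without WT replicate 2, and in 7 of 13 alternatives in all.

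**Figure D4:**
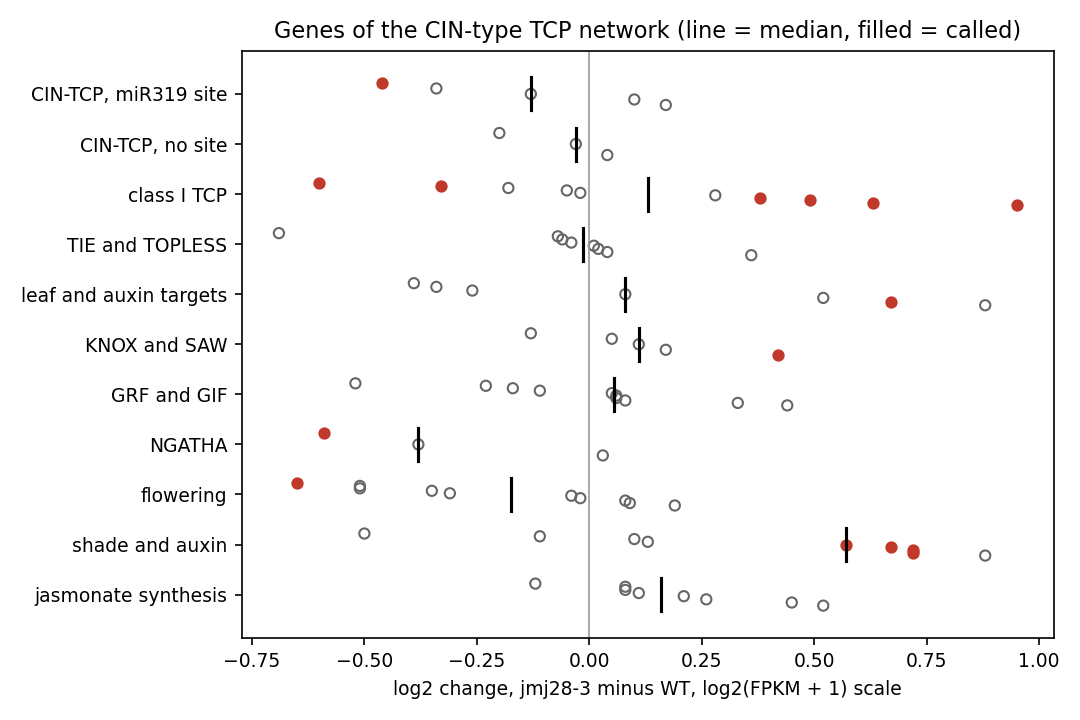
Log2 change of every tested gene in the lists around the CIN-type TCP factors, jmj28-3 minus WT on the log2(FPKM + 1) scale, with called genes filled and the median of each list as a black line. The median of the shade and auxin list (0.57) lies above 0. Those of the CIN-type genes with (-0.13) and without (-0.03) a miR319 site lie just below 0. The lists were chosen with earlier results of these data known.

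Tissue markers are given beside these values. Leaf markers summed to 39472 and 38683 FPKM in jmj28-3 and 40973 and 38425 FPKM in WT, with 4 of 4 above 0. RBCS1A made up most of it, at 25550 and 25338 FPKM in jmj28-3 and 27686 and 24835 FPKM in WT. It overlapped between genotypes, whereas CA1 and GLDP1 lay below both WT libraries and LHCB1.1 lay above both. None of the 4 was called (adjusted p = 0.0783 to 0.739 in limma). Root markers summed to 1213 and 1160 FPKM in jmj28-3 and 1263 and 1223 FPKM in WT, with 7 of 7 above 0. Most of that sum was BGLU23, a beta-glucosidase abundant in roots. The other 6 root markers summed to 34.4 and 31.5 FPKM in jmj28-3 and 41.2 and 40.0 FPKM in WT, so that sum was lower in both jmj28-3 libraries. Of the root list SCR was called lower, at 16.74 and 16.65 FPKM in jmj28-3 and 22.34 and 21.30 FPKM in WT (adjusted p = 0.0364 in limma). BGLU23, COBL9, PLT1 and PLT2 also lay below both WT libraries and were not called (adjusted p = 0.492, 0.0956, 0.516 and 0.663 in limma). SHR and WOX5 of the same list overlapped between genotypes, with log2 changes of -0.04 and 0.21. Of all tested genes 32.7% lay below both WT libraries. Shoot meristem markers summed to 7.75 and 8.29 FPKM in jmj28-3 and 7.74 and 8.74 FPKM in WT, with WUS at 0. The part of organ proportions in the values of TCP4 and TCP2 was not tested.

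**Figure D5:**
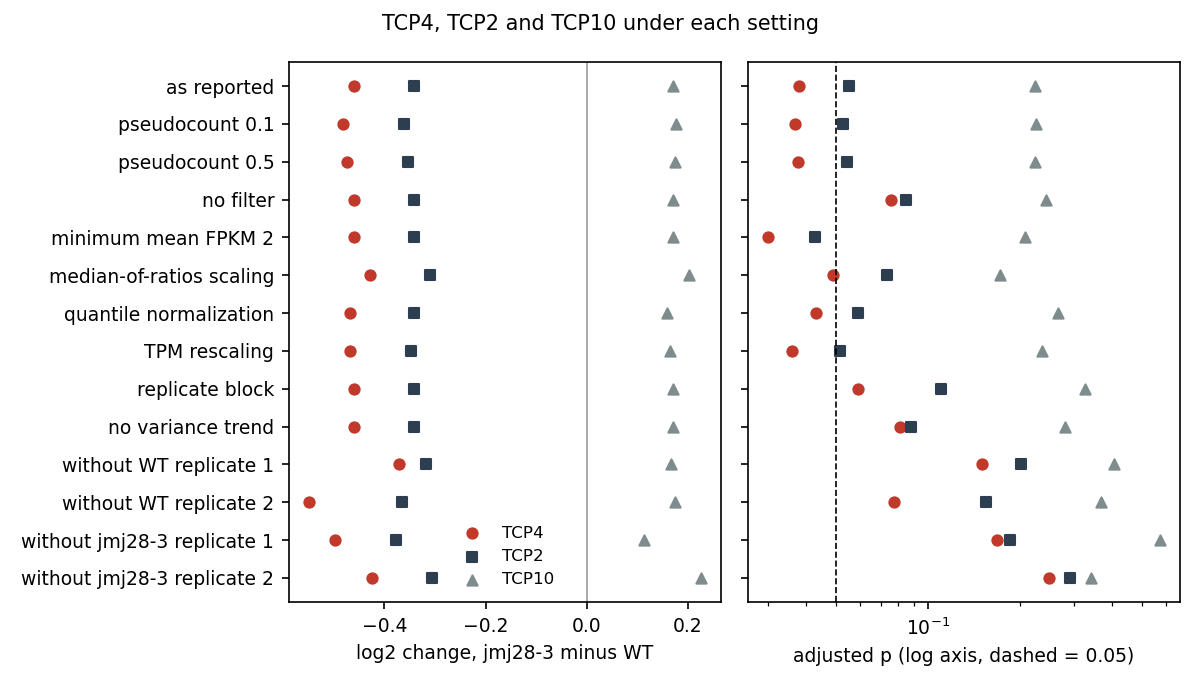
Log2 change (left) and adjusted p on a log axis (right) of TCP4, TCP2 and TCP10 as reported and under the 13 alternatives. TCP4 stays between -0.55 and -0.37 and crosses the dashed line at 0.05 in 7 of 13 alternatives, and TCP10 stays above 0 in all of them.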

How the data were processed

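Members and lists were chosen with earlier results of these data known. The authors deposited FPKM with 2 decimals. TopHat, RSEM and edgeR, with build TAIR10, are named in the submitters' processing notes without versions or settings. Absolute depth was not given. Relative depth was estimated from the commonest ratio of low FPKM values. It came to 1.17, 1.01 and 1.08 times WT replicate 1 for jmj28-3 replicate 1, jmj28-3 replicate 2 and WT replicate 2. This takes that ratio to come from genes with equal fragment counts, which was not tested.

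FPKM hold no counts, so log2(FPKM + 1) was fitted with limma 3.58.1 in R 4.3.3, with genotype as the only term and a variance trend, on the 20232 genes with a mean of at least 0.5 FPKM. Tests were two-sided, with Benjamini-Hochberg adjustment over these genes and a threshold of 0.05. Folds are ratios of mean FPKM, and log2 changes understate those of low genes. The labels name no separate cultures, so replicate spread may be technical. The fit was tested on simulated data.

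The rule named all members, JMJ28, CO, every called list gene (in a list with no call, the 2 lowest p) and the TCP gene closest to each member. TPL, YUC5, YUC2, AS1, KRP1, NGA1, NGA4, FBH3, FT, STM, KNAT1, KNAT6, SCR, SHR, COBL9, PLT1 and PLT2 fall outside it. So do WOX5, BGLU23, RBCS1A, LHCB1.1, CA1, GLDP1, WUS, AP1, the MIR319 genes and AT1G53233. All of these were added with their values in view. Names and sequences come from RefSeq TAIR10.1 by gene identifier, using the mRNA with the longest coding sequence. The alternatives are in the closing section.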

Additional observations from a re-analysis of the deposited data

How the results depend on the processing

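Over all genes, 846 were higher and 767 lower in jmj28-3. No filter on low values gave 526 and 351, no variance trend 469 and 287, and the replicate block 534 and 328. Leaving out 1 library gave 51 to 350 higher and 15 to 130 lower, from 3 libraries with 1 residual degree of freedom. The lone sample is then assumed to vary like the other genotype.

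Of the 8 CIN-type TCP genes 1 was called as reported and 2 at a minimum mean of 2 FPKM. With no filter, no variance trend, the replicate block or any 1 library left out, limma called 0 of the 8. In the other lists 9 genes were higher and 4 lower. No filter gave 5 and 0, and the leave-outs 0 to 6 higher and 0 lower. Lower calls numbered 1 with median-of-ratios scaling, 1 with quantile normalization, 1 with no variance trend and 0 with the replicate block. The cause was not tested.

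The sign of some uncalled changes turned. TCP5 was at 0.005 with median-of-ratios scaling, which also shifted the median of all tested genes, to 0.001 against -0.029, and from -0.196 to 0.143 over the leave-outs, turning without WT replicate 2 and without jmj28-3 replicate 2 (0.044). TCP13 ran from -0.088 to 0.167 and TCP24 from -0.059 to 0.267, both turning without WT replicate 2. CO ran from -0.014 to 0.394, turning without jmj28-3 replicate 1. TCP2, TCP3, TCP4, TCP10 and TCP17 kept theirs in all 13 alternatives.

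Deviations of same-numbered libraries correlated at -0.133 over tested genes, so the values give no sign that the numbers pair the libraries. With 2 libraries a genotype this correlation cannot settle whether same-numbered libraries were handled together. Pairing them crosswise, an alternative chosen after seeing the data, gave 1158 higher and 1129 lower. The data hold 2 libraries a genotype and no read counts. The intervals of TCP3, TCP5, TCP10, TCP13, TCP17 and TCP24 include 0 and, in at least 1 direction, a change of 0.3 log2 units.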
